A study of Mus musculus with 12 samples.

Results

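The genes described here encode 10 secreted cytokines through which stromal cells act on immune cells: the colony-stimulating factors Csf1, Csf2 and Csf3, the Csf1-receptor ligand Il34, the alarmins Il1a, Il1b, Il33 and Tslp, and the lymphocyte factors Il7 and Il15. They were found by symbol in the table of counts, which held 10 of 10 names among 56941 genes, and 8 of them passed the filter on low counts that left 14810 genes for testing. Il1b and Il7 did not pass it and are given by their counts. The cells were 3T3-L1, a wild-type mouse embryonic fibroblast line, and all libraries came from this line and carried 1 batch label. There were 4 conditions with 3 libraries each. Control received no cytokine (its treatment label reads vehicle and its library names read untreated), IL-4/13 received 50 ng/mL of both type 2 cytokines, Inf received 20 ng/mL TNF-α with 0.5 ng/mL IL-1β and 50 ng/mL IL-17A, and the last condition, IL-4/13 + Inf, received all 5. Exposure lasted 24 hours. The line stands for fibroblasts alone, with no immune or epithelial cells beside them, and no source says that the libraries of a condition came from separate cultures, so P values measure only the spread between these samples, which may be technical.

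Colony-stimulating factors drive the production, survival and activation of myeloid cells. M-CSF, the product of Csf1, keeps macrophages alive through the receptor CSF1R, which also binds IL-34, whereas GM-CSF (Csf2) and G-CSF (Csf3) are made on demand in inflammation and act on granulocytes, macrophages and dendritic cells. Alarmins are cytokines released by damaged or stimulated barrier and stromal cells. IL-1α and IL-1β act through the shared IL-1 receptor, IL-33 through ST2, and TSLP through its own receptor chain paired with the IL-7 receptor, and IL-33 and TSLP are known in skin for promoting type 2 responses. IL-7 and IL-15 support the survival of lymphocytes.

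RefSeq promoter sequence, on build GRCm38.p6, was matched for 5 of the 10 genes: Csf1, Csf2, Il1a, Il1b and Il33. The build of the deposited counts was GRCm39, so these coordinates are those of the sequence source only. The 250 bases before the start site are shown for Csf1, the most abundant gene of the group, for Csf2 and Il1a, which were near 0 without Inf and abundant with it, and for Il1b, which lies next to Il1a on chromosome 2 and stayed near 0. All 4 genes are on the minus strand, and the windows are chr3:107760470-107760719 for Csf1, chr11:54249900-54250149 for Csf2, chr2:129309973-129310222 for Il1a and chr2:129371140-129371389 for Il1b. Sequences run 5′ to 3′ along the gene, and capitals mark matches to the searched motifs.
Csf1: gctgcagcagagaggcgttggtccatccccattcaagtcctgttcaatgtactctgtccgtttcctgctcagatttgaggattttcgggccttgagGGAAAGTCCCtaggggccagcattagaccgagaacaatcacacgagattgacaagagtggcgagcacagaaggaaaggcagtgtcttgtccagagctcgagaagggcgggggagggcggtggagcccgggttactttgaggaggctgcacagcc
Csf2: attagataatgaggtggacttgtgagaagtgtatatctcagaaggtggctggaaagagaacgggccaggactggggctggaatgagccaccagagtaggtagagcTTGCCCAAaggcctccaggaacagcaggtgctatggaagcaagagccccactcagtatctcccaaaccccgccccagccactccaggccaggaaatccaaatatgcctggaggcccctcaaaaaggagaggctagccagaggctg
Il1a: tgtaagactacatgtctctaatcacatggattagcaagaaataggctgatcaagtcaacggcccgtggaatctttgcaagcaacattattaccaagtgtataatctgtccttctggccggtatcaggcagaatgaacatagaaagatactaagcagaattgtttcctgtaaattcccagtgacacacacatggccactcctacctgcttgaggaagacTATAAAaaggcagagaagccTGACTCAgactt
Il1b: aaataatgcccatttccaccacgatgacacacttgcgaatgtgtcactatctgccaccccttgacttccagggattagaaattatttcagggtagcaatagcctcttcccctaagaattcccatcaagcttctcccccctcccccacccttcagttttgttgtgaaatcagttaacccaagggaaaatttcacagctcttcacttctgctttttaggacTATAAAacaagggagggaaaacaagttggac
The motifs searched, on both strands, were the NF-kB consensus, AP-1 (TGACTCA), C/EBP (TTGCNNAA), STAT (TTC and GAA with 4 bases between) and the TATA box (TATAAA). No matches overlapped each other in these windows. In Csf1 the capitals mark an NF-kB consensus match on the opposite strand, from -154 to -145 relative to the start site. Csf2 held a C/EBP match from -145 to -138. Il1a held a TATA box from -32 to -27 and an AP-1 match from -12 to -6. Il1b held a TATA box at nearly the same place, from -31 to -26, and no match to the other motifs. For Il33, which has a pair of annotated start sites, the upstream site had a STAT match from -36 to -27 and a TATA match from -203 to -198, and the downstream site had a C/EBP match from -85 to -78 and a TATA box from -29 to -24. Among 32851 promoter windows of the same length, 7.25% held the NF-kB consensus, 4.46% AP-1, 9.56% C/EBP, 5.85% STAT and 12.4% TATAAA. A match describes letters in a window and is not evidence of binding.

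**Figure D1:**
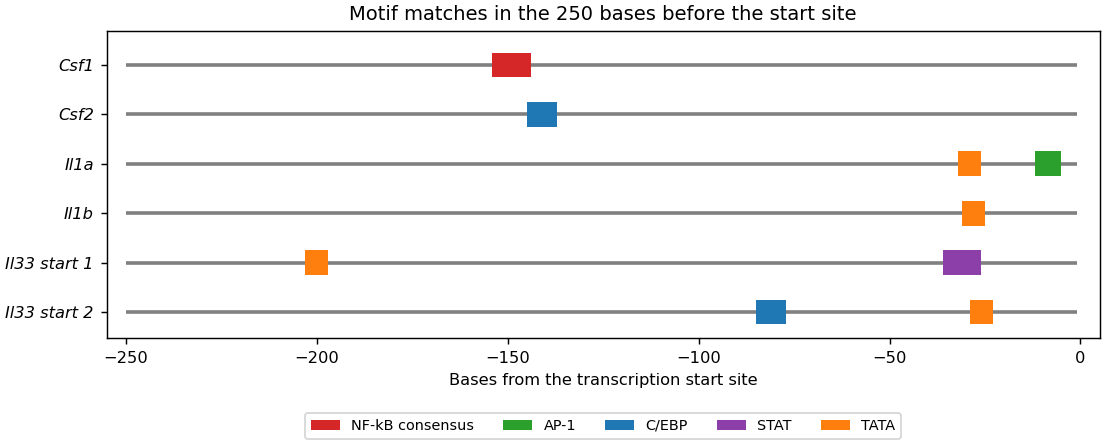
Motif matches in the 250 bases before the start site of 5 genes, with Il33 shown for both start sites. The x axis is the distance from the start site in bases and each coloured bar is a match on either strand; TATA matches lie within 32 bases of the start in Il1a, Il1b and the second Il33 site, and none was found in Csf1 or Csf2.

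Sequencing depth was 13446005 to 20775769 counts per library. Levels are given as CPM, counts per 1000000 at the effective library size, and changes as log2 fold changes ± SE from edgeR's quasi-likelihood test fitted to all 12 libraries. A gene was called when its Benjamini-Hochberg adjusted P was below 0.05 over all 14810 tested genes and its log2 fold change was beyond 0.25. All 10 fibroblast markers examined were expressed, with a summed level of 11770 to 19430 CPM that was 16670 to 19430 in control and 11770 to 12140 in IL-4/13 + Inf. Some markers of other cell types were at or near 0. Tyrobp, Cd3e, Kit and Krt5 had no counts in any library, Adgre1 had at most 1 and Ptprc at most 5. Others were detected: 2 of 6 T cell, 1 of 5 mast cell, 1 of 6 keratinocyte and 1 of 5 endothelial markers passed the filter. Lck was at 1.13 to 2.67 CPM and Krt10 at 3.05 to 6.18 CPM. Hdc was at 0.400 to 0.600 CPM in control and 1.97 to 2.63 CPM in IL-4/13 + Inf. The macrophage marker Mrc1 held 1 to 5 counts in control and 31 to 43 in Inf. Of 12 macrophage markers, 5 passed the filter, and the summed level of the list was 20.41 to 24.01 CPM in control and 47.2 to 62.1 CPM in Inf, most of it Cd14, at 13.2 to 15.8 CPM in control and 38.2 to 51.8 CPM in Inf. The summed level of 6 adipocyte markers was 10.7 to 12.3 CPM in control and 28.7 to 32.2 CPM in Inf, nearly all of it Fabp4, while Adipoq had at most 1 count. The part of these markers in the results below was not tested. In bulk libraries such as these, more cells that express a gene and more RNA per cell cannot be told apart.

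Addition of Inf to the cells was followed by more RNA of 7 of the 8 tested cytokine genes. Csf1, Csf2, Csf3, Il1a, Il33, Tslp and Il15 were upregulated by Inf against control, Il34 was not called, and over all tested genes 31.6% were called in this comparison, with 16.3% higher. The same 7 genes were called higher in IL-4/13 + Inf against control, where 24.9% of all genes were called and 13.4% were called higher, and in IL-4/13 + Inf against IL-4/13, where 24.3% were called and 13.3% were called higher. These comparisons share libraries and do not count as separate evidence. Csf2, Csf3 and Il1a had at most 8, 1 and 1 counts in the libraries without Inf and passed the filter only through the groups with Inf, so they had to differ and the number called is not read against the background.

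IL-4/13 against control was followed by a call for 1 of the 8 tested cytokine genes, Csf2. Over all tested genes 5.35% were called in this comparison, 2.78% higher and 2.57% lower. Added to Inf, it was followed by higher Csf2 and Tslp and lower Il1a, where 14.6% of all tested genes were called, 7.55% higher and 7.00% lower. The Tslp call was kept in 8 of 19 alternative analyses, those of Csf2 and Il1a in 19 of 20 each. The median log2 fold change of the 8 genes in IL-4/13 + Inf against Inf was 0.14, beside -0.01 over all tested genes. The interaction, which asks whether the log2 response to IL-4/13 differs with Inf, was called for 0 of the 8 genes by edgeR and for 0 by DESeq2, with 1 gene, Csf2, at an unadjusted P under 0.05, and over all genes 3.11% were called, 1.52% higher and 1.59% lower.

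**Figure D2:**
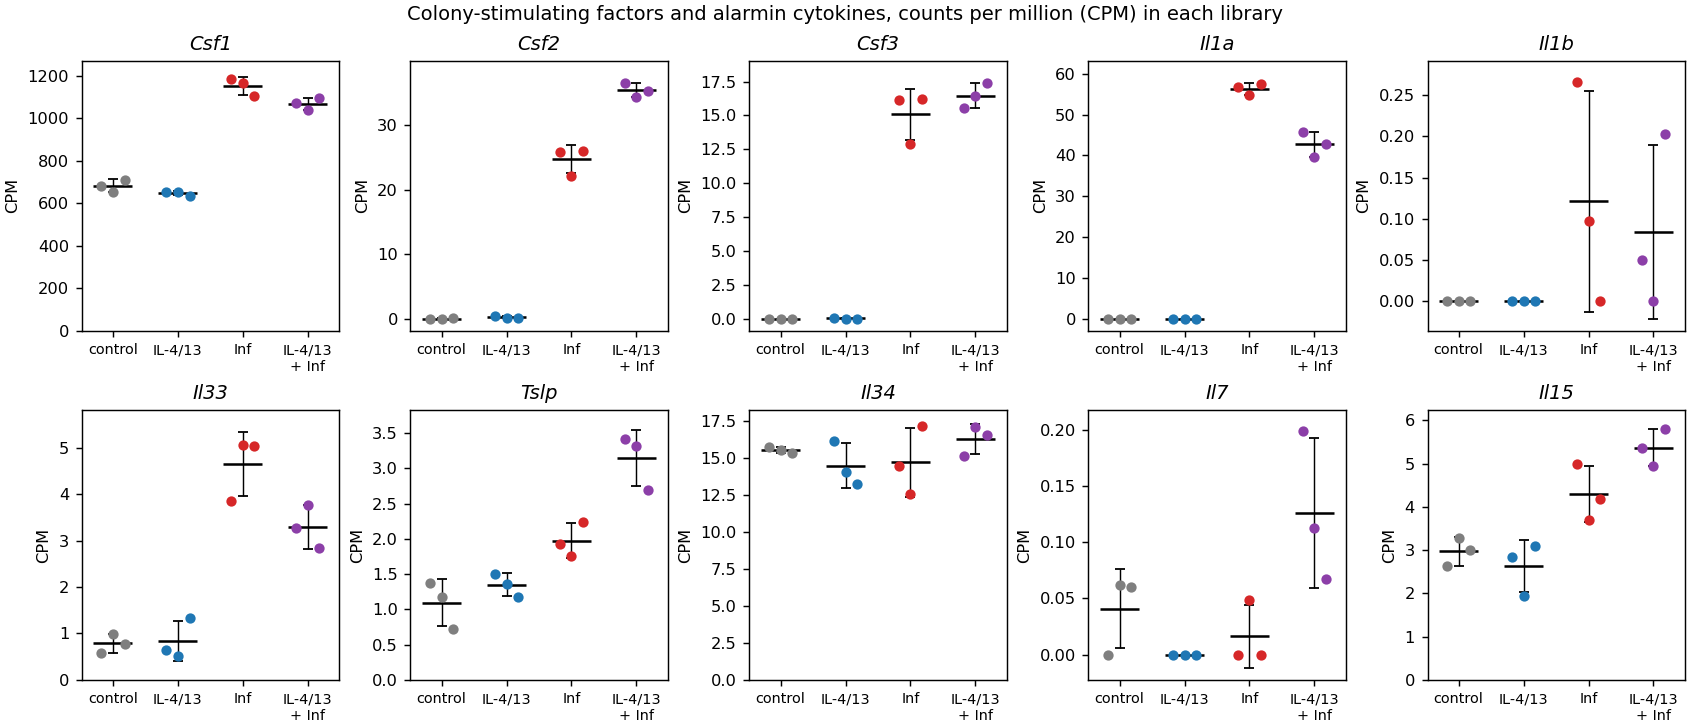
CPM of the 10 cytokine genes in each of the 12 libraries, 1 panel per gene with its own y axis starting at or just below 0. Points are libraries, the thick bar is the group mean and the thin bar the SD (n = 3); Csf2, Csf3 and Il1a lie at or near 0 without Inf, and Il34 lies between 12.5 and 17.2 CPM in every library.

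Csf1 was the dominant transcript of the group. In control it measured 684, 653 and 712 CPM, and in Inf 1184, 1165 and 1103 CPM. Libraries of IL-4/13 + Inf held 1073, 1038 and 1095 CPM, those of IL-4/13 alone 652, 653 and 636 CPM. Every library with Inf was above every library without it, and the 3 libraries of IL-4/13 + Inf were below the 3 of Inf. Csf1 rose by 0.75 ± 0.04 on the log2 scale with Inf (adjusted P = 4.6e-16). The drop with IL-4/13 on top of Inf was small: the log2 fold change was -0.11 ± 0.04, with an adjusted P of 0.05, inside the fold threshold, and it was not called. Without Inf, IL-4/13 moved Csf1 by -0.08 ± 0.04 (adjusted P = 0.27).

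Il34, the other ligand of CSF1R, stood apart from Csf1. Its mean level was 15.5 ± 0.205 CPM in control and 14.5 ± 1.50 with IL-4/13, and 14.7 ± 2.33 with Inf against 16.3 ± 1.01 with the combination (SD, n = 3), and the groups overlapped in every comparison. None of its comparisons was called, with log2 fold changes from -0.09 to 0.16. The standard error of these changes was about 0.11, which sets the size of change that could be seen.

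Csf2, which encodes GM-CSF, went from a near absence to a clear signal. In control the libraries held 0, 0 and 1 counts and in IL-4/13 they held 8, 3 and 1 counts. With Inf they held 390, 456 and 429 counts, or 25.9, 22.2 and 26.0 CPM, and with IL-4/13 + Inf 738, 612 and 524 counts, or 36.6, 34.4 and 35.4 CPM. The groups with and without Inf did not overlap, and each library of IL-4/13 + Inf was above each library of Inf. Against the single count in control, the ratio was 1231 for Inf, with an exact 95% interval of 220.6 to 48670 that covers counting error only. IL-4/13 added to Inf raised Csf2 by 0.53 ± 0.10 on the log2 scale, or 1.44-fold (adjusted P = 0.00012), and the call was made in each alternative analysis at the same fold threshold.

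Csf2 was also the only one of these genes called for IL-4/13 against control, at a log2 fold change of 3.25 ± 0.95 (adjusted P = 0.03). This call rested on 12 counts against 1, a ratio of 12.7 with an exact interval of 1.87 to 541. It was lost without control replicate 1 (adjusted P = 0.13), without control replicate 2 (0.093) and without IL-4/13 replicate 1 (0.29), which held 8 of the 12 counts. The interaction for Csf2, -2.72 ± 0.97, has the same single control count behind it and did not pass (adjusted P = 0.14). In absolute terms the mean level was 0.212 CPM higher with IL-4/13 than in control and 10.7 CPM higher with IL-4/13 + Inf than with Inf. Csf2 shares 96 exon bases with the opposite-strand transcript Gm12223, which had at most 5 counts in any library.

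Csf3, which encodes G-CSF, the main growth factor of neutrophils, had a similar profile without the second step. It had no count in control and 1 in the IL-4/13 libraries together. With Inf it held 243, 265 and 267 counts, or 16.2, 12.9 and 16.2 CPM, and with IL-4/13 + Inf 313, 293 and 258 counts, or 15.5, 16.5 and 17.4 CPM. The groups with Inf overlapped each other and lay far above those without it. Taking the floor of 3 counts over the control group, Csf3 was at least 249.5-fold higher with Inf and at least 274.4-fold higher with IL-4/13 + Inf. The change from Inf to IL-4/13 + Inf was 0.13 ± 0.12 (adjusted P = 0.49) and was not called. Whether the changes of Csf2 and Csf3 differ was not tested.

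Of the alarmins, Il1a had the greatest response to Inf and was the only one of the 8 tested genes called lower with IL-4/13. Control libraries held 0, 0 and 1 counts and those of IL-4/13 0, 1 and 0. Inf gave 854, 1123 and 949 counts, or 56.8, 54.7 and 57.5 CPM, and IL-4/13 + Inf gave 922, 705 and 636 counts, or 45.7, 39.6 and 42.9 CPM. All 3 libraries of IL-4/13 + Inf were below all 3 of Inf. Against the 1 count in control, the ratio for Inf was 2826 with an exact interval of 506.7 to 111600. IL-4/13 on top of Inf lowered Il1a to 0.76 times its level, a log2 fold change of -0.40 ± 0.08 (adjusted P = 0.00025), and the call was made in each alternative analysis at the same fold threshold. Il1a shares 222 exon bases with the opposite-strand transcript Gm14023, 11.2% of its exon length, and that transcript had at most 10 counts in any library.

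Il1b, the neighbour of Il1a, stayed at the limit of detection. It had no counts in the 6 libraries without Inf, 4, 2 and 0 counts with Inf and 1, 0 and 3 counts with IL-4/13 + Inf. These 6 and 4 counts per group were 0.121 and 0.0840 CPM on average, while 3 counts over a group correspond to 0.0576 and 0.0569 CPM. Between the 2 genes that encode IL-1 ligands, the RNA of Inf libraries was therefore 2926 counts for Il1a and 6 for Il1b. IL-1β protein was part of the Inf treatment and was not measured here.

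Il33, a nuclear alarmin, was low in every condition. It measured 0.571, 0.992 and 0.780 CPM in control and 3.86, 5.07 and 5.03 CPM in Inf. With IL-4/13 + Inf it measured 3.27, 3.77 and 2.83 CPM. Libraries with Inf were above all those without it. Il33 rose by 2.58 ± 0.28 on the log2 scale with Inf (adjusted P = 7.5e-09), a 5.97-fold increase. The 3 libraries of IL-4/13 + Inf were again below the 3 of Inf, but the change of -0.50 ± 0.22 did not pass (adjusted P = 0.11). With IL-4/13 alone its level was 0.828 ± 0.433 CPM and the change 0.05 ± 0.38 (adjusted P = 0.97).

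Tslp was higher with IL-4/13 on top of Inf, where the uncalled change of Il33 was negative. In control Tslp measured 1.37, 1.18 and 0.720 CPM, and in IL-4/13 1.50, 1.36 and 1.18 CPM. With Inf it measured 1.93, 1.75 and 2.24 CPM and with IL-4/13 + Inf 3.42, 3.32 and 2.70 CPM. All libraries of IL-4/13 + Inf were above those of the other conditions. The rise was 0.84 ± 0.29 with Inf (adjusted P = 0.018) and 1.53 ± 0.27 with IL-4/13 + Inf against control (adjusted P = 3.4e-05). IL-4/13 added to Inf gave 0.68 ± 0.25 (adjusted P = 0.045), on 29 to 69 counts per library. That last call was lost with DESeq2 (adjusted P = 0.075), with no filter on low counts (0.069), and without IL-4/13 replicate 1 (0.052), 2 (0.052) or 3 (0.05), Inf replicate 1 (0.097) or 2 (0.14), or IL-4/13 + Inf replicate 1 (0.16) or 2 (0.13). The call for Inf against control was lost without control replicate 3 (0.11) or Inf replicate 3 (0.069). Whether the changes of Il33 and Tslp differ was not tested.

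Il15, whose product supports natural killer and memory T cells, rose with Inf and IL-4/13 together. It measured 2.63, 3.29 and 3.00 CPM in control, 4.98, 3.70 and 4.18 CPM in Inf and 5.36, 4.95 and 5.80 CPM in IL-4/13 + Inf. The libraries of Inf and IL-4/13 + Inf overlapped, and both groups lay above control. Il15 rose by 0.85 ± 0.19 with IL-4/13 + Inf (adjusted P = 0.00069). With Inf alone the rise was 0.52 ± 0.20 (adjusted P = 0.034), and this call was lost with DESeq2 (0.053), with no filter (0.056) and without control replicate 1 (0.12) or 3 (0.066) or Inf replicate 1 (0.15) or 3 (0.053). The change from Inf to IL-4/13 + Inf was 0.33 ± 0.18 (adjusted P = 0.21). Il7, the other lymphocyte factor, had 2 counts over the control libraries, none over those of IL-4/13, 1 with Inf and 7 with the combination, too few for a comparison.

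**Figure D3:**
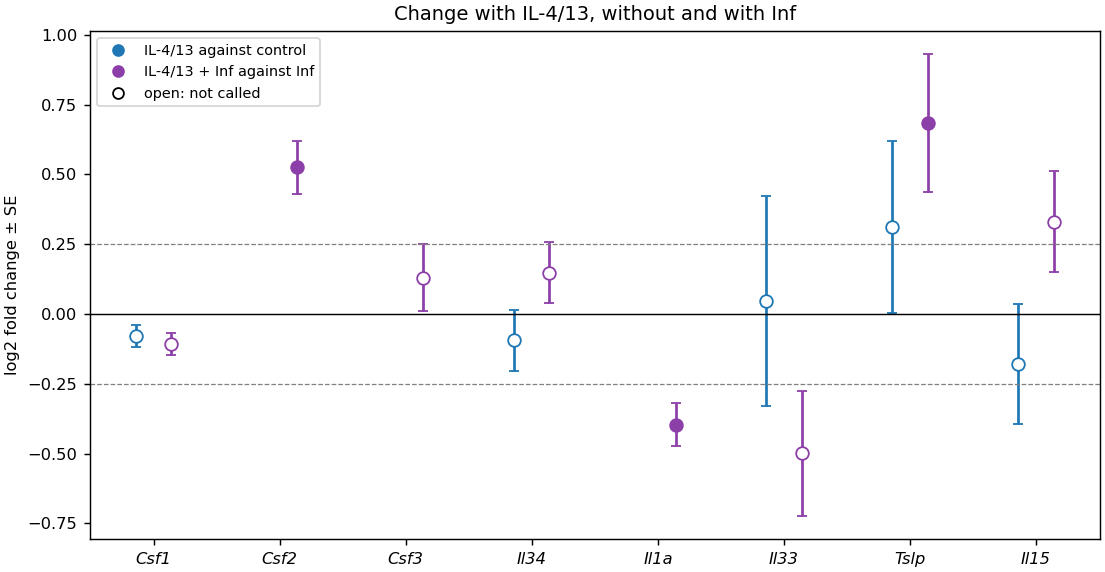
Log2 fold change ± SE with IL-4/13, without Inf (blue) and on top of Inf (purple), with the ±0.25 threshold dashed and filled points called. For Csf2, Csf3 and Il1a the blue point is left out because their groups without Inf held 12 counts or fewer. With Inf, Csf2 and Tslp lie above the threshold and Il1a below it. The Tslp call was lost in 11 of 19 alternative analyses.

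Levels of different genes were compared per kilobase of exon, with exon lengths from GENCODE M21 on GRCm38. Csf1 was first in every condition, from 122.5 ± 1.80 CPM per kb in IL-4/13 to 217.9 ± 8.02 in Inf (SD, n = 3). Without Inf the next gene was Il34, at 7.92 in control and 7.38 in IL-4/13, followed by Il15 at 1.32 and 1.16 and Tslp at 0.819 and 1.01; Il15 and Tslp did not overlap in control and did in IL-4/13. With Inf the order changed. Csf2 came second at 30.9 ± 2.71 CPM per kb and Il1a next at 28.5 ± 0.744, and their libraries overlapped. With IL-4/13 + Inf, Csf2 reached 44.3 ± 1.38 and Il1a 21.7 ± 1.54, and they no longer overlapped. Csf3 followed at 10.7 with Inf and 11.7 with the combination, above Il34 at 7.50 and 8.30 in every library of the same condition. Il15, Il33 and Tslp were last of the tested genes, at 1.90, 1.61 and 1.48 with Inf, where their libraries overlapped, and at 2.38, 1.14 and 2.36 with the combination, where Il15 and Tslp overlapped and Il33 was below both.

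**Figure D4:**
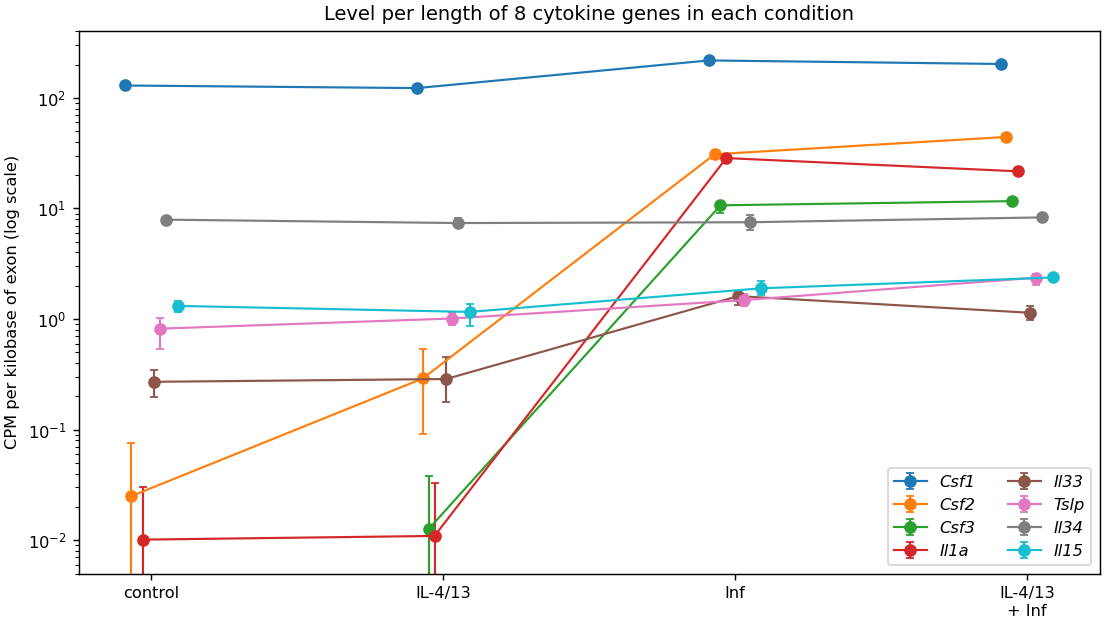
Mean CPM per kilobase of exon in each condition for the 8 tested genes on a log scale, with bars from the lowest to the highest of 3 libraries. Bars that run to the bottom of the axis reach 0, and Csf3 has no point in control, where it had no count; Csf1 is highest in every condition, and Csf2 and Il1a pass Il34 with Inf.

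The genes with the profile most like each cytokine gene over the 12 libraries were found by Euclidean distance between centred log2 CPM profiles, as a description with no test; the libraries share 4 conditions, so any gene with the same step between conditions comes out close. Csf1 was nearest to Atosb (distance 0.21, r = 0.989), Tgfbr3 and Arfgap3. Of the genes near 0 without Inf, Csf2 was nearest to Cxcl1 (1.52, r = 0.993), Mmp13 and Il6, Csf3 nearest to Cxcl1 (0.94, r = 0.998), Ccl3 and Cxcl5, and Il1a nearest to Hp (1.89, r = 0.992), Il6 and Cxcl5. Il33 was nearest to Bdkrb2 (1.05, r = 0.969), Tslp to Hmgn3 (0.79, r = 0.950), Il15 to Smpd3 (0.51, r = 0.943) and Il34 to Ube2j2 (0.30, r = 0.777).

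Receptors for these cytokines divided into those the fibroblasts expressed and those they did not. Of 15 receptor genes, 8 were tested. Csf2ra and Csf2rb, chains of the GM-CSF receptor, had at most 3 counts in any library, as had the G-CSF receptor gene Csf3r and the related gene Csf2rb2. Il7r had none. Csf1r, the receptor of M-CSF and IL-34, was low, at 3.54 CPM on average in control and 2.05 in IL-4/13 + Inf, a log2 fold change of -0.81 ± 0.27 (adjusted P = 0.019) whose call was lost without control replicate 1 (0.12) or IL-4/13 + Inf replicate 1 (0.16). Crlf2, the TSLP receptor chain, was called in no comparison, at 17.9 to 21.3 CPM on average. Il1r2, the decoy receptor of IL-1, had at most 1 count in any library without Inf and 2 to 7 counts in those with it.

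Il1rl1, Il1r1 and Il1rap were higher with either treatment and highest with both. Il1rl1, which encodes the IL-33 receptor ST2 and its soluble decoy form (the counts do not separate the forms), measured 537, 578 and 533 CPM in control and 1314, 1366 and 1288 CPM with IL-4/13. With Inf it was at 832, 912 and 901 CPM, and with the combination at 1958, 1948 and 1883 CPM. No pair of conditions overlapped. IL-4/13 raised it by 1.27 ± 0.04 without Inf (adjusted P = 4.8e-20) and by 1.13 ± 0.04 on top of Inf (adjusted P = 6.4e-19). Il1r1, the signalling receptor of IL-1, averaged 74.4 CPM in control, 106 with IL-4/13, 102 with Inf and 142 with the combination, with a rise of 0.48 ± 0.05 for IL-4/13 on top of Inf (adjusted P = 6.1e-08). Il1rap, the co-receptor of both, averaged 63.8, 144, 162 and 240 CPM in the same order. The response of Il1rap to IL-4/13 was 1.18 ± 0.05 without Inf and 0.56 ± 0.05 with it, and it was the only one of the 8 tested receptor genes called for the interaction (-0.62 ± 0.07, adjusted P = 1.6e-06). Il15ra and Il2rg, chains of the IL-15 receptor, rose by 1.05 ± 0.19 (adjusted P = 0.00013) and 0.76 ± 0.26 (adjusted P = 0.031) with IL-4/13 on top of Inf. Il2rb, another chain of this receptor, went the other way, from 1.73 CPM on average in Inf to 0.989 in IL-4/13 + Inf. The fall of Il2rb was not called. With 1 library left out its log2 fold change was -1.07 to -0.51, called lower in 2 of 12 fits. The Il2rg call was lost with DESeq2 (0.058) and without Inf replicate 1 (0.14) or 2 (0.067) or IL-4/13 + Inf replicate 1 (0.15), 2 (0.056) or 3 (0.055). Of the 8 tested receptor genes, 5 were called higher and 0 lower in IL-4/13 + Inf against Inf. Over all tested genes 14.6% were called in that comparison, 7.55% higher and 7.00% lower. The median log2 fold change of the 8 receptor genes was 0.52, beside -0.01 over all genes.

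**Figure D5:**
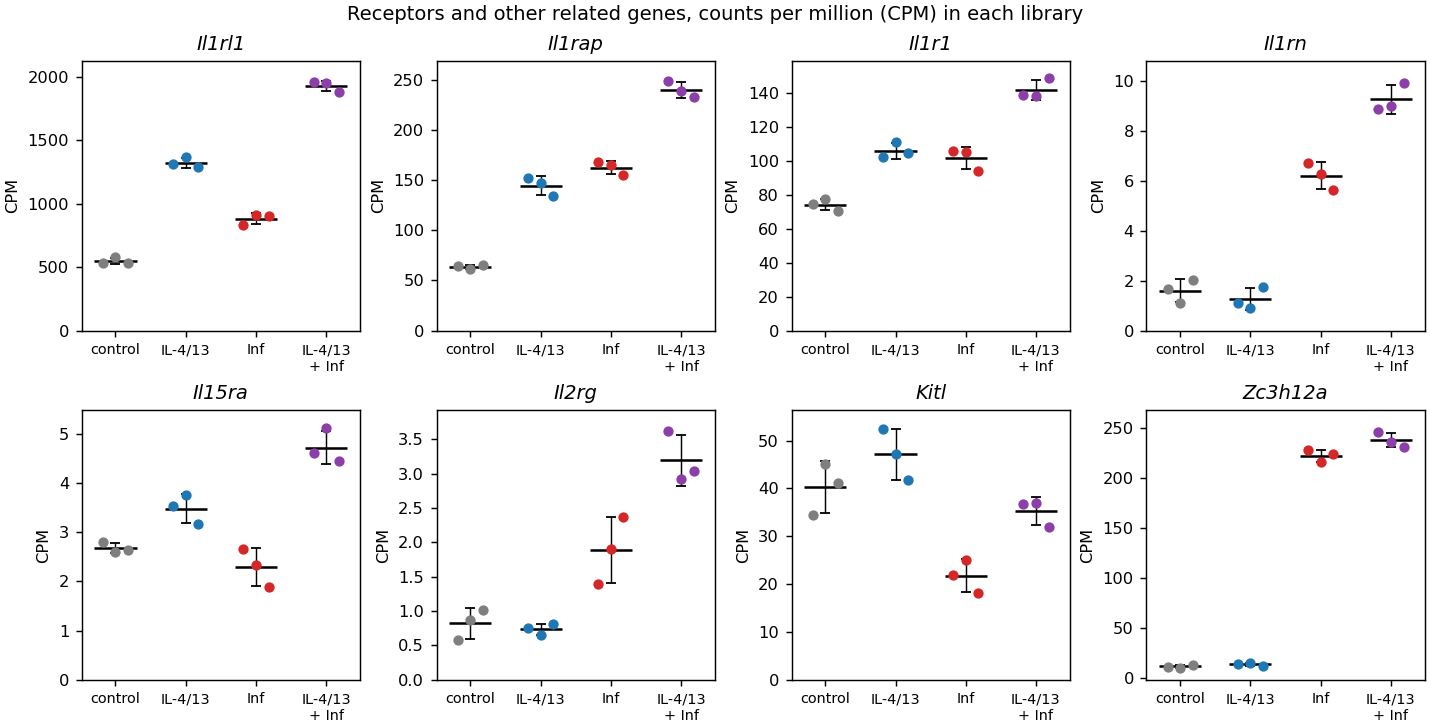
CPM of 8 related genes in each library, with the group mean (thick bar) and SD (thin bar, n = 3). Il1rl1, Il1rap and Il1r1 are higher with IL-4/13 and with Inf and highest with both; Kitl is lowest with Inf, and Zc3h12a is high in both groups with Inf.

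Among 13 genes of the wider IL-1 family and the inflammasome, 8 were tested. Il1rn, Casp4, Gsdmd, Nlrp3, Il36a and Il36g were called higher with Inf and none was called lower, but Nlrp3, Il36a and Il36g had at most 4 counts in any library without Inf and passed the filter only through the groups with it, so they had to differ and the count is not read against the background. Il1rn, which encodes the IL-1 receptor antagonist, rose from 1.66, 1.12 and 2.04 CPM in control to 6.71, 6.28 and 5.64 CPM in Inf and 8.88, 8.99 and 9.92 CPM in IL-4/13 + Inf. All 3 libraries of IL-4/13 + Inf were above those of Inf, by 0.57 ± 0.16 (adjusted P = 0.0098), opposite in sign to Il1a. Il1rn was the only 1 of the 8 tested genes of this list called in that comparison, where 14.6% of all tested genes were called. Nlrp3, an inflammasome sensor, rose from 0.0800 to 3.46 CPM with Inf, Casp4 from 14.3 to 33.3 CPM and Gsdmd, the pore-forming gasdermin, from 14.3 to 30.7 CPM. Il36a and Il36g, other IL-1 family ligands, had no counts in control and were at least 14.5-fold and 17.4-fold higher with Inf. Il18 and Il18bp were not called. Casp1 and Pycard, which encode the caspase that cleaves IL-1β and its adaptor, had at most 4 and 3 counts in any library.

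Other haematopoietic growth factors and interleukins were mostly absent, and of 10 genes, 3 were tested. Il3, the neighbour of Csf2 on chromosome 11, had no count in any library, as had Epo, Il5 and Il25. Kitl, which encodes stem cell factor, was at 34.3, 45.1 and 41.2 CPM in control and 21.9, 25.1 and 18.2 CPM in Inf, and at 36.8, 37.0 and 32.0 CPM in IL-4/13 + Inf. The Inf libraries were below all others. It fell by 0.88 on the log2 scale with Inf (SE 0.13, adjusted P = 3.7e-05) and was 0.70 ± 0.13 higher when IL-4/13 was added (adjusted P = 0.00086), while IL-4/13 alone gave 0.24 ± 0.12 (adjusted P = 0.27). The interaction, which compares these responses of Kitl directly, was not called. Over 19 alternative analyses it lay between 0.35 and 0.59 and was called in 1. Flt3l rose by 0.70 ± 0.26 with Inf (adjusted P = 0.027), from 1.76 to 2.85 CPM. Thpo fell by 1.51 (SE 0.52, adjusted P = 0.019), from 0.719 to 0.237 CPM. It held 10 to 14 counts in each library without Inf and 2 to 9 in those with it. Thpo passed the filter only through the groups without Inf, so the filter favoured a fall and this call is not read as a result. The call of Flt3l was lost without control replicate 1 (0.12) or 3 (0.052) or Inf replicate 1 (0.077) or 2 (0.081), and that of Thpo without control replicate 2 (0.074) or Inf replicate 1 (0.059) or 3 (0.093).

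Regulators of cytokine mRNA decay were all expressed, with 10 of 10 genes tested. With Inf, 3 rose and 2 fell, where 16.3% of all tested genes were called higher and 15.3% lower, and the median log2 fold change of the list was -0.08, beside 0.01 over all genes. Zc3h12a, which encodes the RNase regnase-1, rose from 11.9 to 223 CPM, a log2 fold change of 4.22 ± 0.07 (adjusted P = 1.5e-28), and Zfp36l1 and Zfp36, which encode AU-rich element binding proteins that shorten mRNA lifetime, rose by 0.92 ± 0.04 and 0.37 ± 0.09. Zfp36l2 and Hnrnpd fell by 0.26 and 0.25, close to the threshold. Zfp36l2 lost its call in 6 of 20 alternative analyses. Among them were the fits without control replicate 1 (-0.23) or 3 (-0.23) or Inf replicate 2 (-0.24) or 3 (-0.22). Hnrnpd lost its call in 11 of 20. These included the fits without control replicate 2 (-0.22), Inf replicate 1 (-0.16), or any 1 library of IL-4/13 or of the combination (-0.25 each). In IL-4/13 + Inf against Inf, where 14.6% of all tested genes were called, edgeR called 0 of the 10 genes and DESeq2 0. At an unadjusted P under 0.05 there were 3. Of these 3, Zfp36l2 (-0.19 ± 0.05, adjusted P = 0.0029) and Elavl1 (0.17 ± 0.05, adjusted P = 0.022) passed the adjusted threshold and lay inside the fold threshold, and Hnrnpd did not pass (0.15 ± 0.06, adjusted P = 0.086).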

How the data were processed

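Total RNA of the 12 libraries was selected for polyadenylated transcripts and made into stranded libraries. The authors deposited raw counts per gene, with no normalization; the submitters' processing notes name STAR, featureCounts and GRCm39, and the strand setting and annotation are not given in the sources used here. Counts were analysed with R 4.3.3, edgeR 4.0.16 (filterByExpr with minimum count 10 and minimum total 15, TMM factors, robust quasi-likelihood fit) and, as an alternative, DESeq2 1.42.0, which the study's methods name. The thresholds of 0.05 and 0.25 are those the study gives for its pseudobulk genes. Groups at 0 were compared at a floor of 3 counts over the group, and groups with 1 to 3 counts by an exact binomial interval; both cover counting error only. Promoters, lengths and shared sequence came from GRCm38 tables, and no cytokine gene shared a run of 50 bases with another gene. Named genes were the 10 cytokine genes, 4 lists of related genes and the 3 nearest profiles of each tested gene. The genes and lists were chosen with earlier results of these data known. Alternatives were another tool, other scaling, other filters, fewer libraries, a replicate block and a fold threshold of 1.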

Additional observations from a re-analysis of the deposited data

Results flagged for a closer look

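The log2 response of Il1rap, the co-receptor of IL-1 and IL-33 signalling, to IL-4/13 differed with and without Inf. In CPM the steps were similar: mean levels went from 63.8 to 144 CPM without Inf and from 162 to 240 CPM with it. The log2 fold change with IL-4/13 was smaller by 0.62 on top of Inf than without it (interaction -0.62 ± 0.07 SE, edgeR adjusted P = 1.6e-06), although IL-4/13 raised the gene in both settings, in 3 of 3 libraries each. Over the 19 alternative analyses the interaction lay between -0.67 and -0.58. Its call was kept in 18 of them and lost at the fold threshold of 1.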

How the results depend on the processing

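The fold changes of the cytokine genes were recomputed under the alternatives, which gave 937 values: 897 kept their direction and their side of the threshold, 30 kept their direction and lost the call, and 10 changed sign or came to 0. Those 10 were Il1a, Csf3, Il33 and Il34 values, each with 1 library left out, and 0 of them were called in either fit. In fits that held just the libraries of both groups, 0 cytokine genes were called for IL-4/13 against control in place of 1, since Csf2 was then not tested. Over all genes 892 of 13958 were called in that fit. At a fold threshold of 1, 4 cytokine genes were called for Inf against control in place of 7, and 0 for IL-4/13 + Inf against Inf in place of 3. The share of all genes called at that threshold was not counted, so these numbers are not read against a background. Leaving out 1 library at a time gave 0 to 1 cytokine genes for IL-4/13 against control, 5 to 7 for Inf against control and 2 to 3 for IL-4/13 + Inf against Inf. Over all genes, of which 15099 to 15161 were tested, the same fits called 584 to 879, 4432 to 4802 and 1798 to 2248. Same-numbered libraries did not deviate together: of 18 pairs, 0 correlated over 0.1 (-0.15 to 0.05), so no large shift shared by number was seen. Such correlations cannot show whether same-numbered samples were cultured or prepared together. With the replicate block, Tslp in IL-4/13 + Inf against Inf was 0.67 (adjusted P = 0.065). That left 2 cytokine genes called, beside 2069 of all 14810 tested genes. Il1b and Il7 could be tested only with no filter on low counts. Values below about 1 CPM rest on few counts and are limited by depth.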
